A study of Mus musculus with 4 samples.

Results

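The interferon regulatory factor (IRF) family was followed through the LPS response of BV2 cells, an immortalised mouse microglial line. Members were Irf1, Irf2, Irf3, Irf4, Irf5, Irf7, Irf8 and Irf9, picked by symbol, and these 8 were all found among 24411 genes. Both groups carried a CRISPR-Cas9 knockout of PU.1, the ETS transcription factor encoded by Spi1. Of the 4 libraries 2 came from untreated cells and 2 from cells given 10 ng/ml lipopolysaccharide (LPS), which activates TLR4. The labels give the exposure as 2 h in one field and 4 h in another, and leave unsaid whether the edited cells are 1 clone. Unedited cells were not analysed here, so no effect of the knockout was measured, and the comparison shows how edited cells with and without LPS differ.

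IRF proteins share an N-terminal DNA-binding domain that reads GAAA repeats, the core of the interferon-stimulated response element (ISRE). IRF3 and IRF7 are phosphorylated by TBK1 and IKK epsilon after pathogen sensing and switch on type I interferon genes, IRF5 acts downstream of MyD88, and IRF9 joins STAT2 in ISGF3, the complex that carries the interferon signal to the ISRE. IRF1 is an inducible activator and IRF2 a constitutive factor that competes with it, while IRF4 and IRF8 are lymphoid and myeloid factors recruited to composite DNA sites by partners such as PU.1.

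Promoter letters are shown first because IRF genes are themselves known targets of interferon and NF-kB signals. In RefSeq (GRCm38.p6) the members lie on chromosomes 11 (Irf1), 8 (Irf2 and Irf8), 7 (Irf3 and Irf7), 13 (Irf4), 6 (Irf5) and 14 (Irf9), with 11 start sites, since Irf1, Irf8 and Irf9 each have a second one. In the 250 bases before each start both strands were searched for 4 motifs. These were an ISRE-like pair (GAAA, any 2 bases, GAAA), the STAT site GAS (TTC, any 3 bases, GAA, which reads the same on both strands), an ETS-IRF composite site (GGAA, any 2 bases, GAAA, which can overlap the ISRE-like pair) and the kB motif of NF-kB. The ISRE-like pair stood in 1 member window and in 2.98% of 32841 windows of all genes. GAS stood in 3 member windows (7.02% of all), the composite site in 1 (2.3%) and the kB motif in 2 (3.9%). The 3 windows that held any of them are printed 5′ to 3′ on the gene's strand, with the matched letters in capitals.
Irf1, chr11:53769764-53770013, plus strand: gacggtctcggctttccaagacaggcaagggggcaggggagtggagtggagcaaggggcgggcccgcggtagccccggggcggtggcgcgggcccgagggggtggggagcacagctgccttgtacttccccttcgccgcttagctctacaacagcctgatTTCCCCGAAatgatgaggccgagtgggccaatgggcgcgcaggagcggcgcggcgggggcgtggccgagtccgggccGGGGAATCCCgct
Irf2, chr8:46739495-46739744, plus strand: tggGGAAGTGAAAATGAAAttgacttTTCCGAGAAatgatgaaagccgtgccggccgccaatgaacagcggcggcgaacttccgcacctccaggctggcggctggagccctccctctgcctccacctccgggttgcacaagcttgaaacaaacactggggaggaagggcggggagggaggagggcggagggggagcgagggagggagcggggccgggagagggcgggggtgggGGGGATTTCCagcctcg
Irf8, chr8:120736108-120736357, plus strand: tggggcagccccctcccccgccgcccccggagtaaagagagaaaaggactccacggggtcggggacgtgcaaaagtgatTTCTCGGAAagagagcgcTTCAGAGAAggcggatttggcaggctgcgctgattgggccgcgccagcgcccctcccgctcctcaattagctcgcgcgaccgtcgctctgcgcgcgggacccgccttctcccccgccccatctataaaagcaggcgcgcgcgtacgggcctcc
Irf1 held a GAS match at -90 to -82 from the start and a kB match, read on both strands, at -13 to -4. Irf2 held all 4 motifs: the composite match (-247 to -238) and the ISRE-like match (-241 to -232) overlapped in 1 stretch, with GAS at -224 to -216 and kB at -17 to -8. Irf8 held GAS matches at -171 to -163 and -153 to -145. The windows of Irf3, Irf4, Irf5, Irf7 and Irf9 did not hold these letters, from which nothing follows about factor binding.

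Counts assigned to genes totalled 3256197 to 4502105 per library, and the members took 0.0303% to 0.0793% of them. Spi1 reads were present throughout, 844 and 743 without LPS and 745 and 958 with it, and gene counts do not show whether the edit is there. Levels are given as CPM, read counts scaled to the library size after TMM normalisation. In the edgeR comparison of 9992 genes, 26.6% rose with LPS and 25.3% fell (adjusted p under 0.05), together 51.9%. With scaling by library size alone, which shifts the median log2 fold change across genes by -0.36, 22.4% of the calls were upward, against 51.3% here. Separate cultures are not stated for the libraries of a group, so p-values measure only the spread between these libraries, which may be technical.

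Of the 8 members, 7 had enough reads to be tested, and each of the 7 also met the expression filter in the untreated libraries alone. With LPS 5 were higher (Irf1, Irf2, Irf5, Irf7 and Irf9), 1 was lower (Irf8), 1 did not pass (Irf3) and 1 was too low to test (Irf4). Of all genes tested, 26.6% were higher and 25.3% lower. The rises of Irf7, Irf9 and Irf1 exceeded 2-fold, as did 9.47% of all genes tested, and no member fell 2-fold, as 7.73% of all genes did. Both LPS libraries lay above both untreated ones for 5 members (37.5% of all genes) and below them for 2 (37.6%), so the 7 tested members showed no overlap, against 75.1% of all genes. Their median log2 fold change was 0.80, beside 0.00063 over all genes. In these bulk libraries fewer expressing cells and less RNA per cell cannot be told apart.

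**Figure D1:**
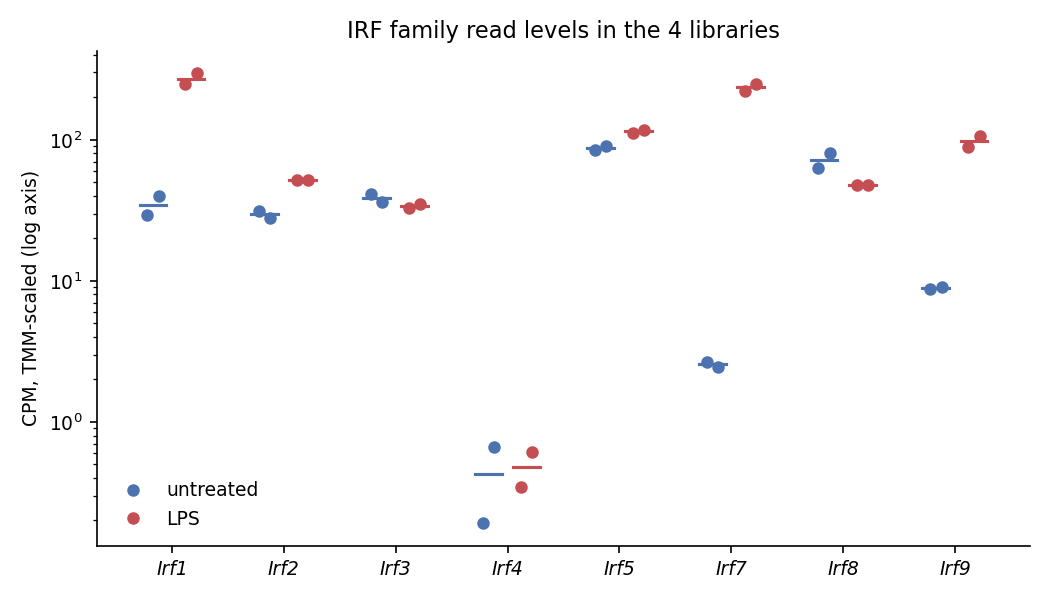
CPM of each IRF family member (log axis) in the untreated (blue) and LPS (red) libraries; points are libraries and bars are group means of 2. Irf7, Irf9 and Irf1 sit far above their untreated level after LPS, Irf8 sits below it, and Irf4 stays under 1 CPM in every library.

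Irf7, Irf9 and Irf1 showed the largest changes. Irf7, the factor that amplifies type I interferon output, measured 2.68 and 2.43 CPM without LPS and 224 and 247 CPM with it. These values came from 14 and 11 reads against 645 and 813, so the untreated level is the less precise. The log2 fold change was 6.50 ± 0.17 (SE), with an adjusted p of 8.6e-35 by edgeR, rank 65 of 9992 genes by log2 fold change. The libraries of each group lay close together and the groups far apart.

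Irf9, the DNA-binding subunit of ISGF3, measured 8.80 and 9.07 CPM without LPS and 89.1 and 107 CPM with it. The untreated pair nearly coincided, and the LPS pair lay well above it. The rise was 3.46 ± 0.16 on the log2 scale (SE, edgeR adjusted p = 1.2e-24). GENCODE vM21 gives Irf9 123 exonic bases in common with Rnf31 on the same strand, a gene with 11 to 32 reads per library, and how the counting split reads there is uncertain.

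Irf1, an activator of antigen-processing and guanylate-binding protein genes, measured 29.3 and 39.8 CPM without LPS and 247 and 296 CPM with it. Its untreated pair was spread more widely than that of Irf9, and both LPS libraries were above it. The rise was 2.99 ± 0.12 on the log2 scale (SE, edgeR adjusted p = 2.1e-18), or 7.92-fold.

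Irf2, the constitutive competitor of IRF1, measured 31.2 and 28.1 CPM without LPS and 51.6 CPM in each treated library. Its log2 fold change was smaller, at 0.80 ± 0.14 (SE, edgeR adjusted p = 3.2e-06). Adjusted for transcript length, Irf1 and Irf2 stood at 16.2 ± 3.49 and 11.9 ± 0.870 CPM per kilobase without LPS (SD, n = 2). With LPS they stood at 127 ± 16.4 and 20.7 ± 0.00707, so the distance between the activator and its competitor was wider.

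Irf3 and Irf5 showed small differences or none that passed. Irf3, which starts the interferon beta response downstream of TRIF, measured 41.5 and 36.3 CPM without LPS and 32.6 and 34.9 CPM with it. Both treated libraries were slightly below the untreated ones, and the log2 fold change was -0.21 ± 0.14 (SE, edgeR adjusted p = 0.23). It was -0.57 if libraries were scaled by size alone (adjusted p = 0.000586) and 0.079 after a correction for GC content, so no direction is given for Irf3.

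Irf5, which transmits MyD88 signals to inflammatory cytokine genes, measured 84.5 and 90.2 CPM without LPS and 112 and 117 CPM with it. The treated pair was above the untreated pair, by 0.39 ± 0.11 on the log2 scale (SE, edgeR adjusted p = 0.0014). This call was lost if libraries were scaled by size alone (0.038, adjusted p = 0.8) and without untreated replicate 1 (0.34, adjusted p = 0.0629). GENCODE vM21 places 411 exonic bases of Irf5 opposite Tnpo3, and the column for the opposite strand held 0 to 2 Irf5 reads per library.

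Irf8 was the 1 member called lower. This factor, needed for microglial and dendritic cell development, measured 62.7 and 80.5 CPM without LPS and 47.5 and 48.0 CPM with it. The untreated pair was spread more widely than the treated pair but lay wholly above it. The log2 fold change was -0.58 ± 0.13 (SE, edgeR adjusted p = 0.00022). In all 14 alternative settings it was below 0, from -0.93 to -0.40, and the call was lost without untreated replicate 2 (-0.40, adjusted p = 0.0525).

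Irf4, a lymphoid factor also tied to alternative macrophage activation, had 1 and 3 reads without LPS and 1 and 2 with it. It could not be tested, and the ratio of treated to untreated levels, 1.18, had a 95% exact interval of 0.173 to 7.0 that covers counting error only. A difference in Irf4 was not detectable at this depth.

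**Figure D2:**
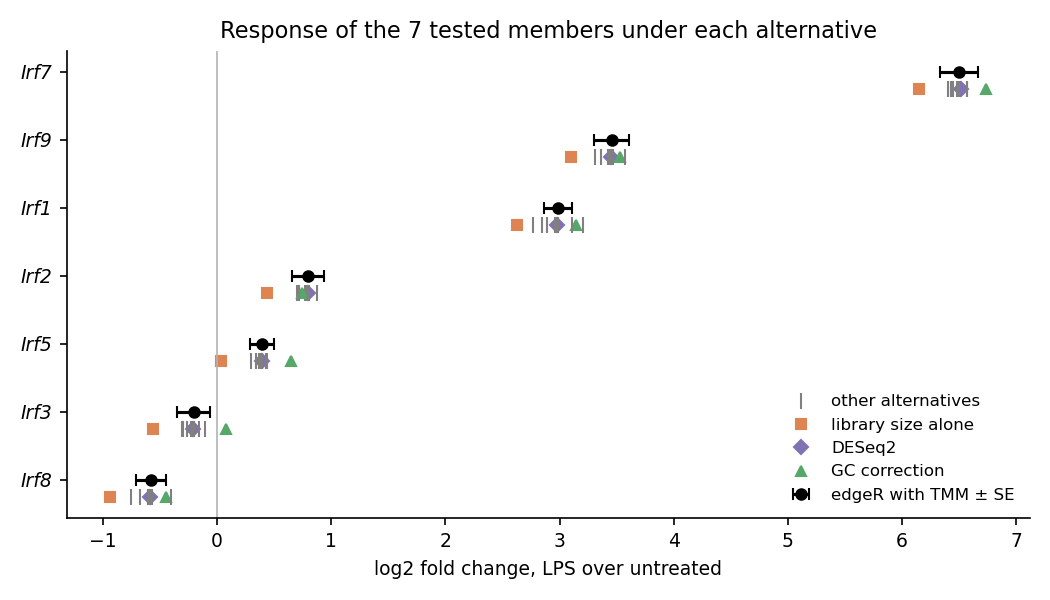
Log2 fold change after LPS for the 7 tested members (black, with SE) and, below each, under 14 alternative settings (orange squares library size alone, purple diamonds DESeq2, green triangles GC correction, grey ticks the rest). Irf7, Irf9, Irf1 and Irf2 stay to the right of 0 and Irf8 to the left throughout, while Irf3 crosses 0 with GC correction and Irf5 comes near 0 with library size alone.

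Levels of different members can be compared only per transcript length. CPM was divided by the length of the principal GENCODE transcript, 1916 bases for Irf7 to 4764 for Irf4. The family summed to 111 and 121 CPM per kilobase without LPS and to 372 and 418 with it. Before LPS, Irf5 was the most abundant member at 39.0 ± 1.796 CPM per kilobase (SD, n = 2), followed by Irf8 at 25.2 ± 4.42. Irf3 (19.1 ± 1.82) and Irf1 (16.2 ± 3.49) came next and overlapped, ahead of Irf2, Irf9, Irf7 and Irf4 in that order. After LPS, Irf1 (127 ± 16.4) and Irf7 (123 ± 8.56) led and overlapped each other, ahead of Irf5 (51.2 ± 1.55), Irf9 (39.8 ± 5.12) and Irf2. Irf8 (16.8 ± 0.120) and Irf3 (16.6 ± 0.813) overlapped above Irf4. With the longest transcript instead, Irf7 stood at 72.6 CPM per kilobase after LPS, still second, and Irf3, Irf8 and Irf2 took the fifth, sixth and seventh places.

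The makeup of the family thus differed between the groups. Irf5 made up 33.9% and 33.2% of the summed per-kilobase level without LPS and 13.5% and 12.5% with it. Irf8 made up 19.8% and 23.3% before and 4.48% and 4.03% after. The mean share of Irf7 went from 1.15% to 31.1% and that of Irf1 from 13.8% to 32.1%. The shares were not tested, and a share can fall without a fall in the gene's own level, as the Irf5 levels show.

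**Figure D3:**
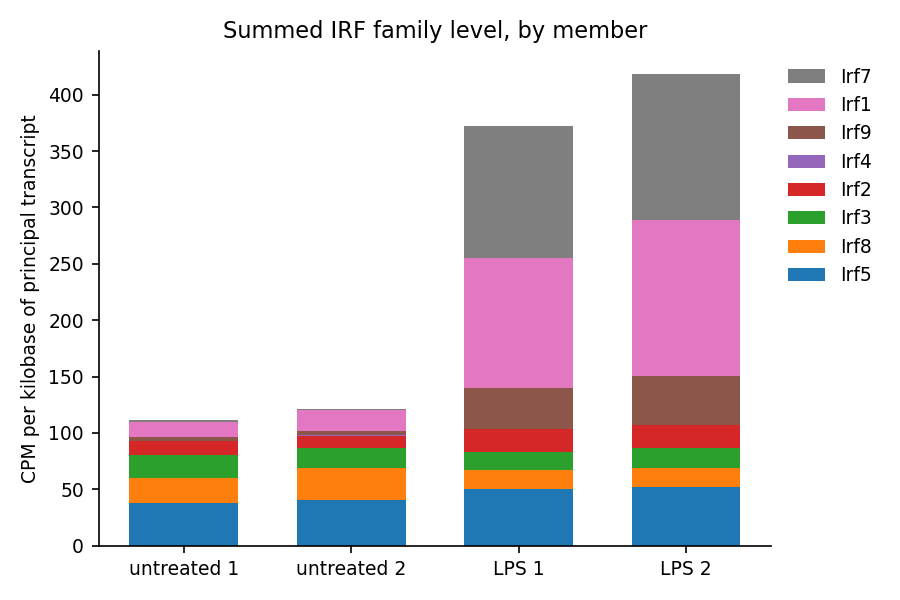
Stacked level of the 8 members in each library, in CPM per kilobase of principal transcript. The stacks reach 111 and 121 without LPS and 372 and 418 with it, and most of the added height is Irf7, Irf1 and Irf9, while Irf4 is too low to see.

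The genes that carry signals to the IRFs moved in part. In a list of 16 adaptors and kinases upstream of IRF3, IRF5 and IRF7, 15 were tested. Of these 7 rose, 4 fell and 4 did not pass (median log2 fold change 0.20). Of all genes tested, 26.6% rose and 25.3% fell. Ikbke, which encodes IKK epsilon, rose from 19.8 ± 3.04 to 276 ± 11.97 CPM (SD, n = 2), a log2 fold change of 3.79. The kinase gene Irak2 (2.81), the TBK1-binding adaptor gene Tank (1.56) and the adaptor gene Myd88 (1.06) also rose. Tbk1, which encodes the kinase shared by IRF3 and IRF7, rose from 17.8 ± 2.96 to 41.6 ± 0.464 CPM (1.21). The weakest rise was that of Ticam1 (0.47). Its call was lost with upper-quartile scaling (edgeR adjusted p = 0.0937), by size alone (edgeR adjusted p = 0.633) and with DESeq2 (adjusted p = 0.29). It stood at 0.53, 0.41 and 0.23 without untreated replicate 1, untreated replicate 2 and LPS replicate 1. The 4 that fell were Irak1 (-0.30), Mavs (-0.28), Tmem173, which encodes STING (-0.29), and Slc15a4 (-0.44). None of the list was called lower with DESeq2, with GC correction or without untreated replicate 2, 1 was without untreated replicate 1 or LPS replicate 1, and 2 were without LPS replicate 2.

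The partners of IRF9 rose with it. Of 10 interferon receptor and ISGF3 genes, 9 were tested and all 9 rose (median log2 fold change 0.99), against 26.6% of all genes tested. The weakest, Ifnar2 (0.43), lost its call with DESeq2 (adjusted p = 0.0668), without untreated replicate 2 (adjusted p = 0.093) and if scaled by size alone (0.075). Stat2, the constant partner of IRF9, had 35 and 46 reads without LPS and 324 and 409 with it, a log2 fold change of 3.83 ± 0.16 (SE). The kinase gene Jak2 (2.08) and the interferon gamma receptor gene Ifngr2 (0.99) rose as well. Irf9 and Stat2 thus changed by 3.46 and 3.83 on the log2 scale, and the difference between them was not tested. Ifnb1, the interferon beta gene, had no untreated reads and 3 and 2 after LPS, and was too low to test. The ratio is 2.63 if the untreated group is set to 3 counts, which leaves out counting error in the LPS reads.

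All 25 genes of a list of ISRE-driven interferon-stimulated genes were higher after LPS, against 26.6% of all genes tested. For 18 of the 25 the expression filter was met only through the LPS libraries, so those had to differ. The 7 that also met it untreated (Ifit2, Oas1a, Oas3, Oasl1, Bst2, Trim25 and Eif2ak2) all rose, from a log2 fold change of 1.75 for Trim25 to 6.08 for Ifit2. The smallest p-values were those of Rsad2 (6 and 4 reads untreated, 3416 and 3794 after LPS), Cmpk2, Ifit1 and Ifit3. Each of these is among the 18 that met the filter only through the LPS libraries, so their p-values add no support. Ifit3 had 2 and 1 untreated reads, and its ratio was 1390 (95% exact interval 476 to 6760).

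In a list of 20 genes known as IRF1 targets, 16 were tested and all 16 rose (median log2 fold change 1.98), against 26.6% of all genes tested. Of the 16, 13 met the filter untreated. The peptide transporter gene Tap1 rose from 17.4 ± 0.767 to 222 ± 1.47 CPM (SD, n = 2, log2 fold change 3.67), and Cd274, which encodes PD-L1, from 11.3 ± 2.17 to 274 ± 1.67 CPM (4.61). Nos2, the inducible nitric oxide synthase gene, had no untreated reads and was 138-fold higher if the untreated group is set to 3 counts. Gbp2 had 0 and 2 untreated reads and a ratio of 490 (95% exact interval 135 to 4050). Nos2 and Gbp2 met the filter only through the LPS libraries, so they had to differ. Ciita, Vcam1 and Il12b stayed at 0 to 2 reads per library.

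**Figure D4:**
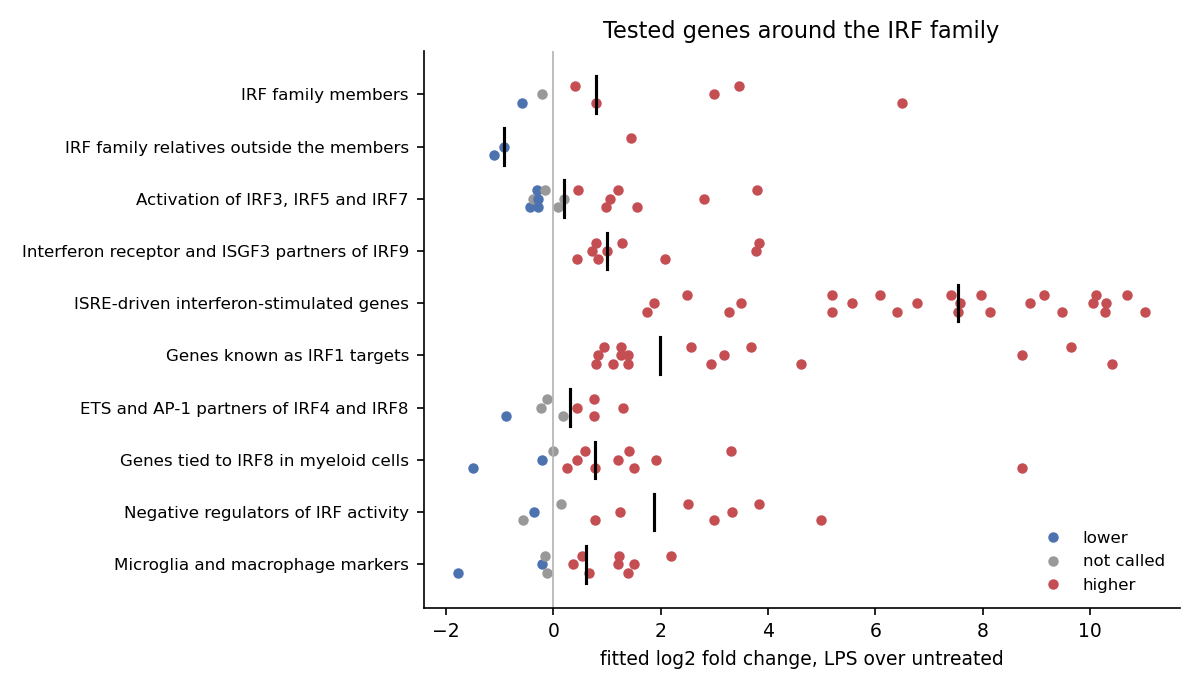
Fitted log2 fold change of each tested member and of each tested gene in 9 lists (red higher, blue lower, grey not called at adjusted p 0.05), with the list's median as a black bar. All 25 interferon-stimulated genes lie right of 0, of which 18 met the expression filter only through the LPS libraries. The interferon receptor genes and the IRF1 targets also lie right of 0, while the members and the other lists spread to both sides. Values of genes without untreated reads depend on edgeR's prior count.

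The partners and myeloid associates of IRF8 and IRF4 did not follow 1 direction. Of 12 ETS, AP-1 and related partners, 8 were tested. Of these 4 rose and 1 fell (median log2 fold change 0.31), against 26.6% and 25.3% of all genes tested. If libraries were scaled by size alone 3 rose and 3 fell, with upper-quartile scaling 4 rose and 2 fell, and none fell with DESeq2, GC correction or without LPS replicate 1. Spi1 rose from 163 ± 2.06 to 274 ± 23.1 CPM (SD, n = 2, log2 fold change 0.75), while Irf8 fell. The AP-1 genes Junb (1.30), Jund (0.76) and Jun (0.44) rose. For Jun the call was lost if scaled by size alone (adjusted p = 0.614), with DESeq2 (adjusted p = 0.0999) and without untreated replicate 2 (adjusted p = 0.0576). Batf3, the partner of IRF8 in dendritic cells, fell (-0.88), a call lost with DESeq2 (adjusted p = 0.133), GC correction (adjusted p = 0.148) and without LPS replicate 1 (adjusted p = 0.0722). Spib and Ikzf3 had 0 reads.

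Of 16 genes tied to IRF8 in myeloid cells, 13 were tested. Of these 10 rose and 2 fell (median log2 fold change 0.78), against 26.6% and 25.3% of all genes tested. Among the 9 that met the filter untreated, 6 rose and 2 fell, and if libraries were scaled by size alone 6 of the list rose. The oxidase subunit genes Cybb (3.31) and Ncf1 (1.41) rose, as did Cd180 (0.78). Bcl6, a repressor gene, fell from 21.6 ± 0.247 to 7.58 ± 0.435 CPM (SD, n = 2, -1.51). Csf1r, the receptor gene for macrophage growth factor, was called lower at -0.21, a call lost with DESeq2 (adjusted p = 0.143), GC correction (adjusted p = 0.986) and without untreated replicate 1, untreated replicate 2 or LPS replicate 2 (adjusted p = 0.0915, 0.294 and 0.366). Of 10 genes of IRF4 and alternative activation, 2 could be tested. Among the 8 too low to test, Arg1 had 0 and 1 reads without LPS and 2 and 9 with it. Mrc1 had 1 and 1 against 3 and 6, while Klf4 had 7 and 3 against 1 and 2. Il4ra rose (0.37), a call lost with DESeq2 (adjusted p = 0.0999), by size alone (adjusted p = 0.92) and without untreated replicate 1 (adjusted p = 0.208), and Retnla and Chil3 had 0 reads.

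IRF-binding cofactors and negative regulators also changed. Of 3 corepressor genes tested, 1 rose and 2 fell, against 26.6% and 25.3% of all genes tested. Irf2bp2 fell from 142 ± 11.5 to 65.6 ± 9.11 CPM (SD, n = 2, log2 fold change -1.11). Irf2bp1 also fell (-0.92), a call lost with DESeq2 (adjusted p = 0.0791) and GC correction (adjusted p = 0.117), and Irf2bpl rose (1.44). Of 12 negative regulators of IRF activity, 10 were tested, of which 7 rose and 1 fell (median log2 fold change 1.87). Over all genes tested these shares were 26.6% and 25.3%. Of the 7 that rose, 6 met the filter untreated. The deubiquitinase gene Tnfaip3 (4.98), Socs3 (3.33), the DNA exonuclease gene Trex1 (2.99) and Atf3 (2.51) rose. Rbck1, linked to IRF3 turnover, was called lower (-0.35) and stood at 0.056 after GC correction. Its call was also lost with DESeq2 (adjusted p = 0.0925) and without untreated replicate 1 or 2 (adjusted p = 0.052 and 0.0737).

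The labelled cell type was checked against 13 microglia and macrophage markers. Of these 12 were tested, 8 rose and 2 fell (Csf1r and Tmem119), against 26.6% and 25.3% of all genes tested. Of the 8 markers that rose, 6 met the filter untreated. If libraries were scaled by size alone 5 rose and 4 fell, and with upper-quartile scaling 7 rose and 4 fell. The number that fell was 1 with DESeq2, GC correction or without either untreated replicate. Cd68 stood at 699 ± 48.6 CPM without LPS (SD, n = 2), whereas the homeostatic microglial markers were low, P2ry12 with 12 and 7 reads without LPS and 1 and 0 with it. Tmem119 fell from 19.1 ± 4.28 to 5.46 ± 0.863 CPM. Of 10 lymphoid and plasmacytoid dendritic cell markers, the cells best known for Irf4 and Irf7, 7 had no reads (Ms4a1, Pax5 and Siglech among them), and their summed level of 70.5 to 112 CPM was nearly all Sdc1. Of 14 epithelial, fibroblast, neural and endothelial markers, 8 had no reads, 2 were tested (Kdr, which rose, and Vwf, which did not pass), and the sum was 22.8 to 50.6 CPM.

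Genes whose pattern was most like that of a member were found by the Euclidean distance between log2 CPM values (prior count 2), centred on each gene's mean over the 4 libraries. Nearest to Irf9 were Herc6 (distance 0.111), Hcar2 (0.139) and Cybb (0.177). Nearest to Irf7 were Traf1 (0.199), Rtp4 (0.200) and Mx2 (0.203), of which Traf1 and Mx2 had no untreated reads and Rtp4 stood at 0.302 CPM untreated. Irf1 was closest to Arnt2 (0.121), Psmb9 (0.149) and Il15 (0.197), and Irf8 to Cables2 (0.0413), Cyb5rl (0.055) and Mgst3 (0.0699). Arnt2 stood at 0.317 CPM untreated, with a fitted log2 fold change of 4.03 against 2.99 for Irf1. The places of Traf1, Mx2, Rtp4 and Arnt2 therefore depend on the prior count. With 4 libraries in 2 groups such likeness describes mainly the size of the change on this damped scale.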

How the data were processed

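Strand-specific RNA sequencing with ribosomal RNA depletion was made from 2 untreated and 2 LPS-treated samples, per the labels' protocols. The deposited tables hold unnormalised read counts by gene symbol for each sample, in the layout of STAR gene counts. The submitters' processing notes list STAR 2.5.1, Trimmomatic 0.33, CASAVA 1.8.2 and DESeq2, and a human build (hg19), whereas organism and symbols are mouse. The gene annotation was not given in the sources used here, so lengths, overlaps and promoters were matched by symbol to GENCODE vM21 and RefSeq.

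The reverse-strand column was used (79 to 95 times the forward-strand gene total). Summary lines stayed out. Of uniquely placed reads 51.8% to 59.1% fell in no gene. The edgeR filter, about 10 counts (2.54 CPM) in 2 libraries, kept 9992 of 12982 genes with any count. TMM factors ran from 0.880 to 1.16. The test was edgeR 4.0.16 (robust quasi-likelihood, two-sided, treatment as sole term, R 4.3.3), tested on simulated data, with Benjamini-Hochberg adjustment over all genes. The SE is approximate, the size of the log2 fold change over the root of F. Floors (3 counts over a group) and 95% exact intervals cover counting error only, and a floor covers only that of the group without reads. Libraries within a group were not duplicates (chi-square per degree of freedom 1.52 and 2.44).

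Members and lists were chosen with earlier results of these data known. Named genes are all members, Spi1, up to 4 called genes per list by smallest p, and the 3 nearest genes of a member. Any further list genes named were picked after seeing values, and some items covered by this rule are not reported here. Alternatives were RLE, upper-quartile and library-size scaling, DESeq2 1.42.0, 2 other filters, unstranded counts, leaving out 5 abundant entries (Rn45s among them), GC correction, a block by replicate number, and each library left out. The longest transcript length was added after seeing the data.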

Additional observations from a re-analysis of the deposited data

Results flagged for a closer look

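Irf1 reads also appeared in the column for the opposite strand, which entered none of the comparisons. There were none without LPS and 1 and 5 with it, 6 in all, which is above the untreated level. They make up 0.354% of the stranded Irf1 reads after LPS, while a count of 0 among 333 untreated reads allows up to 0.901% (3 counts, counting error only), so a difference in the share was not detectable. Nor was the trace particular to Irf1, since after LPS the share ran from 0% (Irf3) to 0.623% (Irf2) in other members, leaving aside Irf4 with its few reads. Over all genes the reverse-strand total was 95.3 and 78.7 times the forward-strand total in the LPS libraries. GENCODE vM21 places 135 exonic bases of Gm17334 on the strand opposite to Irf1, and its part in the opposite-strand Irf1 reads was not tested.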

How the results depend on the processing

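Irf1, Irf2, Irf7 and Irf9 kept their direction and their call in all 14 alternatives, with log2 fold changes of 2.63 to 3.21, 0.44 to 0.87, 6.15 to 6.74 and 3.10 to 3.58. Scaling by library size alone shifted the median over all genes by -0.36 (log2). Under it 4 members were higher and 2 lower, Irf3 was at -0.57 and Irf5 at 0.038. It gave 1379 genes higher and 4778 lower (22.4% and 77.6% of calls, against 51.3% and 48.7%) and turned 3 list medians negative, for the activation of IRF3, IRF5 and IRF7 (-0.16), the ETS and AP-1 partners (-0.051) and alternative activation (-0.23). DESeq2 gave 1760 genes higher and 1405 lower. GC correction turned Irf3 to 0.079 and Rbck1 to 0.056. Leaving out 1 library each gave 4 to 5 members higher and 0 to 1 lower, with log2 fold changes of 0.34 to 0.43 for Irf5 and -0.76 to -0.40 for Irf8. With the replicate number as a block 5 members were higher and 1 lower, and 2658 genes were higher and 2513 lower. Of the genes named, Tmem173 lost its call under it (adjusted p = 0.0517). Same-numbered libraries did not deviate together (correlation -0.044 across 9992 genes). The differences behind this value also hold counting error, so it cannot exclude pairing, which the labels do not state. With the longest transcript, the mean share of the summed level after LPS was 39.7% for Irf1, 4.09% for Irf2, 5.21% for Irf3, 16.1% for Irf5, 22.7% for Irf7 and 7.91% for Irf9, and in the untreated group 7.11% for Irf2, 36.9% for Irf5, 0.75% for Irf7 and 2.19% for Irf9. The causes of these shifts were not tested. Depth limits Irf4 and Ifnb1, each with under 10 reads over the 4 libraries.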
